A study of Drosophila melanogaster with 3 samples.

Results

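The pair-rule genes h, run, odd, slp1, slp2 and prd were examined in 1 list of chromatin immunoprecipitation peaks for the GFP-tagged transcription factor Caudal. They were represented by 5 windows of the BDGP5 assembly, with slp1 and slp2 sharing 1 window, and the members were the peaks whose midpoint lay inside a window. Of the 7579 peaks of the list, 14 met this rule. The windows were 3L 8645000 to 8690000 for h, X 20530000 to 20580000 for run, 2L 3585000 to 3630000 for odd, 2L 3810000 to 3850000 for slp1 and slp2, and 2L 12065000 to 12100000 for prd. Together they measured 215 kb. The exact positions of the genes inside the windows were not used here, because the gene table at hand was of Release 6, another assembly. A peak is therefore described as lying in a gene's window and not at its promoter, intron or enhancer.

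The material carried the stage label 3dFemale and the source label 7T, and the title of the ChIP sample names cad-GFP, a transgene that makes Caudal fused to green fluorescent protein. The antibody, labelled NWG-GFP, is directed at the tag. The tissue and the promoter that drives the transgene are not given in the labels, and the growth text describes embryo collection in a y w, VK33 stock, which differs from the stage label. The series has 1 ChIP sample, whose title covers 2 replicates, and 2 input samples made from the same source, of which no values were analysed here. Both replicates share a single list, so the values carry no replicate error and no test was run.

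Pair-rule genes divide the early Drosophila embryo into segments, and most are transcribed in stripes. Caudal, a homeodomain protein graded along the embryo, is known there as an activator of posterior stripes. After embryogenesis Caudal is known for its role in the gut, and several pair-rule genes are used again in other tissues. The h gene encodes a basic helix-loop-helix repressor, run a Runt-domain protein, odd a zinc-finger protein, slp1 and slp2 related forkhead proteins, and prd a protein with a paired domain and a homeodomain.

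The loci were unlike each other. The h window held 7 of the 14 peaks (50%) in 20.9% of the combined length, and 48.4% of its bases lay inside a peak. The odd window held 3 peaks and was covered to 6.64%, and the prd window held 2 and was covered to 10.7%. The windows of run and of slp1 and slp2 held 1 peak each and were covered to 2.06% and 2.33%. The windows other than that of h together held 41.2 peaks per Mb and were covered to 5.11%. The arms carried 66.5 (3L), 61.7 (X) and 56.0 (2L) peaks per Mb between their first and last peak, and 11.2%, 11.5% and 9.95% of these spans lay inside a peak.

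**Figure D1:**
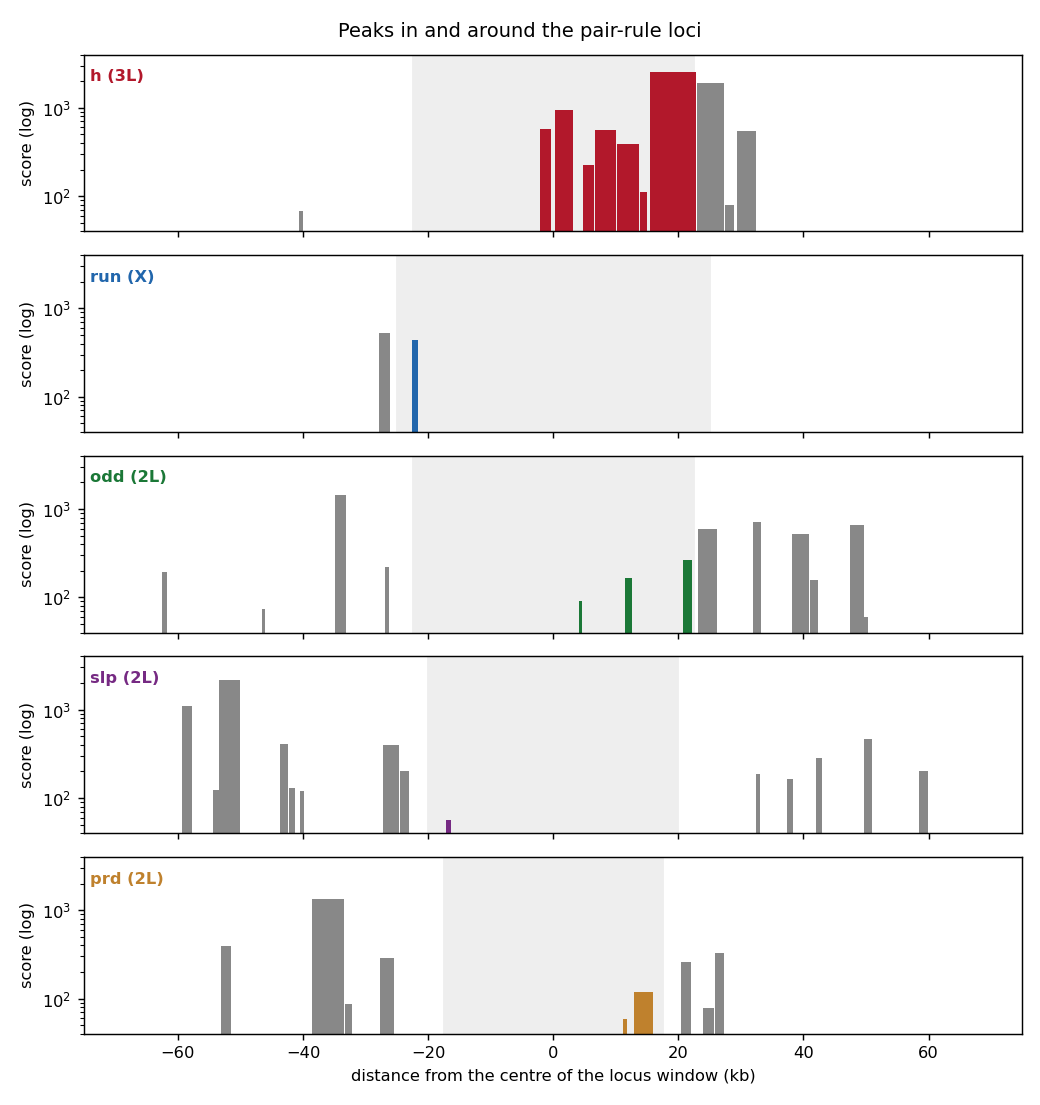
Peaks in and around the 5 loci. The horizontal axis is the distance from the centre of each window in kb, the shaded area is the window, each box spans a peak, and the top of a box gives its deposited score on a log axis. Coloured boxes have their midpoint inside the window and grey boxes lie within 1 window length of it. The 7 peaks of h form a nearly closed block that runs on past the window, whereas the peaks of run, slp1 and slp2, and prd lie towards the window edges.

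The h window was the densest. Its peaks lay at 8665355 to 8667173 (score 572.33), 8667701 to 8670659 (score 948.80), 8672236 to 8673979 (score 226.70), 8674170 to 8677607 (score 564.50), 8677645 to 8681262 (score 391.46), 8681404 to 8682529 (score 110.50) and 8682924 to 8690325 (score 2509.56) on 3L. All of them lay at or beyond the centre of the window on its higher-coordinate side, apart from the first, whose midpoint lay just below the centre. The lower 20.4 kb of the window held no peak and belonged to a peak-free interval of 37.9 kb. The last peak, 7402 bp wide, ranked 60 by score and 76 by width among the 7579 peaks of the list. The score is a value of the authors that orders peaks within this list only, and it is not an amount of binding.

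The block of peaks at h did not end with the window. The next peak, at 8690405 to 8694855, began 79 bp after the strongest one and had a score of 1908.12 (rank 118). It lay wholly past the window edge, with its midpoint 25.1 kb from the centre. When peaks with edges up to 2 kb apart were joined, a distance chosen after the values had been seen, the run at h comprised 10 peaks from 8665355 to 8699911. The 2 last of them, at 8694975 to 8696324 (score 78.68) and 8696861 to 8699911 (score 548.44), also lay outside the window. The gaps inside the run measured 37 to 1576 bp, and 89.6% of its 34.6 kb lay inside a peak. The run was bordered by 37.9 kb without a peak on the lower side and by 55.9 kb on the higher side. The first peaks beyond those stretches had scores of 67.54 and 65.86.

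Of the 4760 runs built in the same way on the 6 arms, the run at h had the most bases inside peaks, 30958 bp against 26982 bp for the next. Only 7 runs, including that at h, had 10 or more peaks (0.147%). With edges up to 1 kb apart the run at h shortened to 8 peaks over 27.7 kb and again had the most bases inside peaks, 26180 bp among 5638 runs. With edges up to 5 kb apart its 10 peaks and their span did not change, while other runs grew, and it ranked 9 of 3201 by bases inside peaks. By number of peaks it then ranked 23, and 31 runs, including that at h, had 10 or more. On 3L alone it ranked 1 by bases inside peaks at each of the 3 distances.

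**Figure D2:**
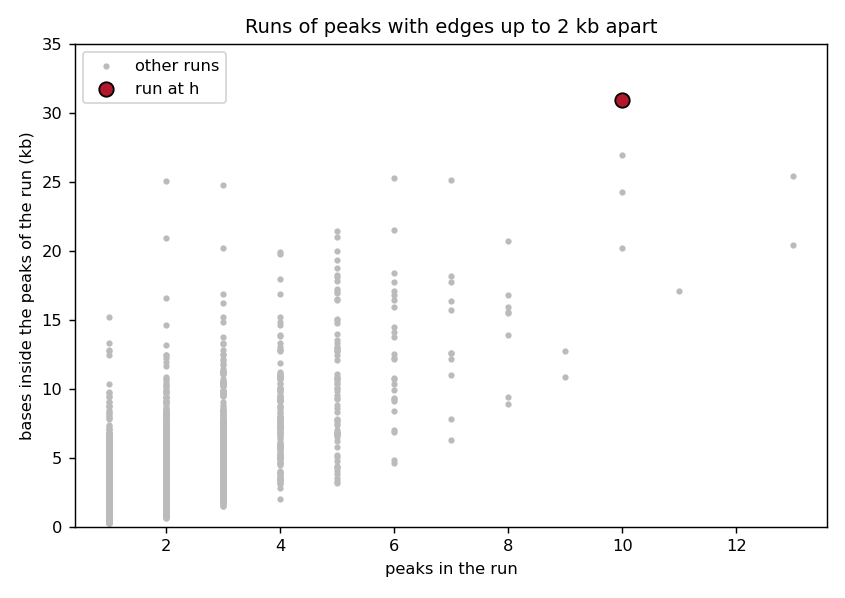
Runs of peaks on the 6 arms, with edges up to 2 kb apart. The horizontal axis is the number of peaks in a run and the vertical axis the kb inside those peaks, and each point is 1 of 4760 runs. The run at h, with 10 peaks and 30958 bp, has the highest point on the vertical axis, while some other runs have more peaks.

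To place each locus on its arm, it was set among all windows of its own length, started every 1 kb from the first to the last peak of the arm. Such windows overlap and are not independent, so their shares are descriptions. On 3L, 11.8% of the 23246 windows of 45 kb held at least the 7 peaks of h (mean 2.99 ± 2.80, SD over windows). The covered share set h further apart than the number of peaks, since 1.06% of the windows were covered to 48.4% or more. Their median was 6.96% and their 95th percentile 36.6%. Of the 1065 windows that also held 7 peaks, 2.07% were covered as much as h, and their median was 26.1%. The highest score of h was reached or passed in 1.36% of the windows.

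Near the middle of the distributions lay odd and prd. The 3 peaks of odd were reached or passed by 42.2% of the 22825 windows of 45 kb on 2L, and 68.5% held 3 or fewer. Its covered share of 6.64% compared with a median of 4.63% over those windows. The 2 peaks of prd were matched or undercut by 66.2% of the 22835 windows of 35 kb, and its covered share of 10.7% compared with a median of 3.59%. As much coverage was found in 44.2% of the windows for odd and in 33.5% for prd, so neither locus lay in a tail of 2L by these measures.

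The low numbers of run and of slp1 and slp2 were also common on their arms. At most 1 peak was held by 41.4% of the 22340 windows of 50 kb on X, and by 49.7% of the 22830 windows of 40 kb on 2L. No peak at all was held by 31.0% and 36.1% of them. The highest score of the run window, 442.04, was close to the median of the X windows, which was 377 with empty windows counted as 0. It was reached or passed in 46.6% of the X windows, where 69.0% held at least 1 peak. Among windows with a peak it was thus below the middle. Windows with more peaks have more chances of a high score, however, and the run window held 1. Compared peak by peak, 28.3% of the peaks of X and 23.4% of the list scored as high or higher. That of the slp1 and slp2 window, 56.60, was below the median of 206, again with empty windows counted as 0. As low a value or no peak was found in 37.0% of the windows, nearly all of them the 36.1% without a peak. A score of 56.60 or more was reached in 63.0% of the windows, where 63.9% held at least 1 peak. So low a highest score was therefore rare among windows with a peak. Here too the number of peaks plays a part, and windows with 1 peak were not compared separately. Compared peak by peak, 95.6% of the peaks of 2L scored as high or higher.

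**Figure D3:**
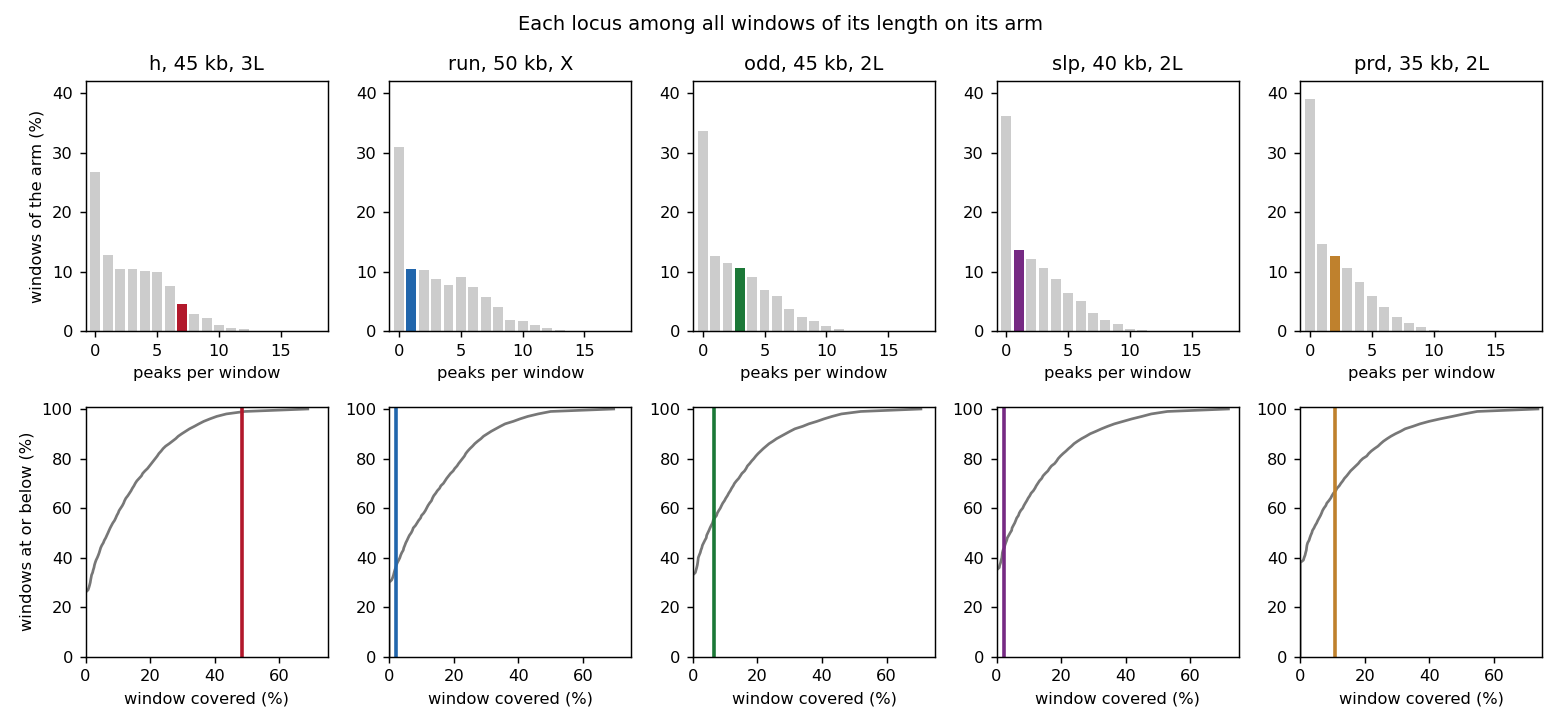
Each locus among all windows of its length on its arm. In the upper row the horizontal axis is the number of peaks per window and the vertical axis the percentage of windows, with the bar of the locus coloured. In the lower row the horizontal axis is the percentage of a window inside peaks, the vertical axis the percentage of windows at or below that value, and the coloured line marks the locus. Only the line of h, at 48.4%, lies in the upper tail.

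The run window held 1 peak, at X 20532414 to 20533441, with a width of 1028 bp and a score of 442.04. Its midpoint lay 2.93 kb inside the lower edge of the window. The nearest peak outside, at 20527078 to 20528846, had a score of 523.14 and lay below that edge. Above the single peak, no further peak was listed until 20836608, an interval of 303 kb that took up 93.1% of the window. It was the 4th longest of the 1380 peak-free intervals of X (0.290% were at least as long) and ranked 13 among 7550 on all 6 arms. This share counts intervals, not the bases in them, and a fixed window falls more often into a long interval than a short one. The part of the arm inside intervals this long is therefore larger than the share. The same holds for the interval shares given below for odd, slp1 and slp2, and prd. In the Release 6 table the protein-coding neighbours of run are hydra and CG1324, and which gene the peak belongs to cannot be told from the list.

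The run window lies towards the centromere-side end of the X, 1.89 Mb before its last peak. In the last 2 Mb of X, 72.5% of the windows of 50 kb held at most 1 peak, against 38.4% in the rest of the arm. Their means were 1.39 and 3.24 peaks. The long interval beside run lies in these last 2 Mb, so its own windows count in the 72.5% and in the mean of 1.39. The part of this position in the long interval beside run was not tested, nor was whether reads could be mapped there.

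The odd window held 3 peaks, at 2L 3611693 to 3612092 (score 90.86), 3618962 to 3620107 (score 164.33) and 3628304 to 3629744 (score 264.48). Their widths were 400, 1146 and 1441 bp. Score and width both rose from the middle of the window towards its higher-coordinate edge. The first peak past that edge, at 3630705 to 3633722, was 3018 bp wide and had a score of 601.73, and the 45 kb beyond the edge held 6 peaks with a median score of 564. Over all windows of 45 kb on 2L the median was 2 peaks, the 75th percentile 4 and the 95th percentile 8. Below the 3 peaks lay a peak-free interval of 30.4 kb, from 3581295 to 3611692, which held the centre of the window and 59.3% of its length. Of the 1280 intervals of 2L, 12.9% were at least as long. In the Release 6 table odd is followed by Ugt36A1, CG15418 and for, the last encoding a cGMP-dependent protein kinase, and preceded by sob, a gene related to odd.

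The window of slp1 and slp2, adjacent genes in the Release 6 table, held the weakest peak of the 14. It lay at 2L 3812802 to 3813732, 3.27 kb inside the lower edge, with a width of 931 bp. Its score of 56.60 was just above the lowest value of the list, 50, and was exceeded or matched by 95.7% of all peaks. From there to 3862378 no peak was listed, an interval of 48.6 kb that took up 90.7% of the window, and 7.50% of the intervals of 2L were at least as long. The surroundings were not empty. The 40 kb below the window held 8 peaks with scores of 121.02 to 2159.66, and the 40 kb above it held 5 with scores of 165.91 to 461.94. The nearest outside on either side had scores of 200.48 and 186.33. The protein-coding gene before slp1 in the table is CG3407, and that after slp2 is TTLL4B.

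The prd window held a peak at 2L 12093619 to 12094302 (684 bp, score 58.69) and a second at 12095406 to 12098457 (3052 bp, score 119.79). Both lay in its higher-coordinate part, with midpoints 11.5 and 14.4 kb from the centre. Below them a peak-free interval of 36.5 kb took up 81.8% of the window, and 9.92% of the intervals of 2L were at least as long. The first peaks outside, below and above the window, had scores of 286.54 and 259.68. In the Release 6 table prd lies between CG14947 and Pex19, which encodes a peroxisome biogenesis factor.

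**Figure D4:**
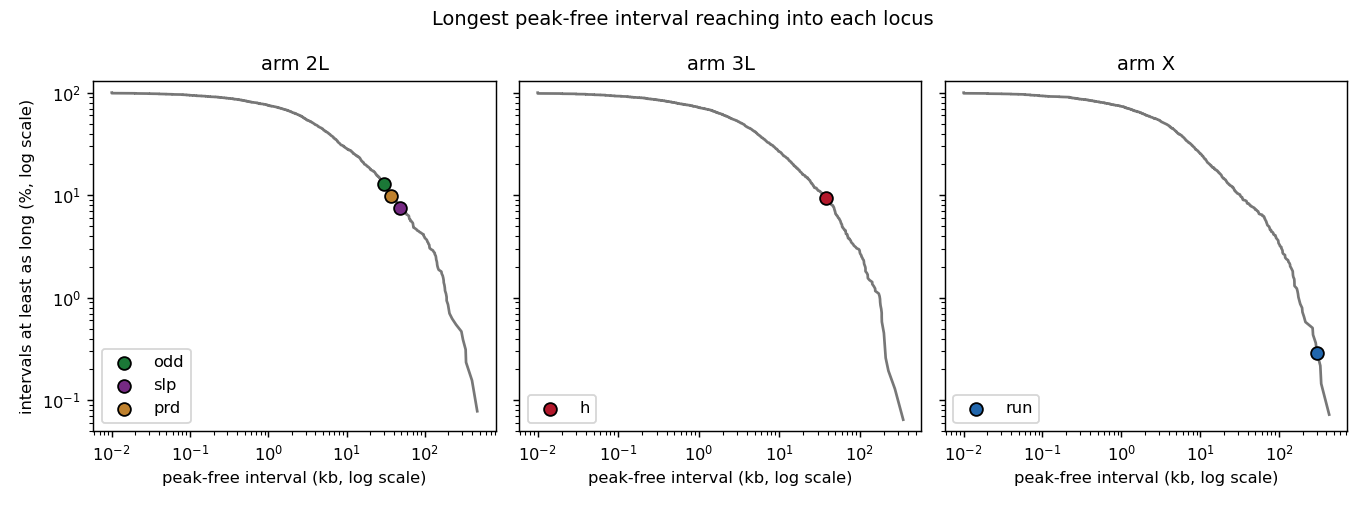
Peak-free intervals of the arms 2L, 3L and X. The horizontal axis is the length of an interval in kb and the vertical axis the percentage of intervals at least as long, both on log scales. The percentage counts intervals and not the bases in them. Coloured points mark the interval that takes up more of each window than any other interval, from 45.2% at h to 93.1% at run. The point of run, at 303 kb, lies near the end of its curve, and the points of the other loci lie between 30.4 and 48.6 kb.

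The central 50% of the windows separated h and odd from the rest. It held 4 peaks at h, 1 at odd and 0 at run, at slp1 and slp2 and at prd. An empty centre was common, however. It was found in 45.5% of the windows of 50 kb on X, in 51.6% of those of 40 kb on 2L and in 54.3% of those of 35 kb on 2L. The centre of the window lay 21.6 kb from the nearest peak at run, 16.3 kb at slp1 and slp2, 11.1 kb at prd and 4.19 kb at odd. The medians over positions every 1 kb were 9.06 kb on X and 10 kb on 2L, and 33.5% of the positions of X were at least as far from a peak as the centre of run. For the centres on 2L, the shares of its positions were 39.6% (slp1 and slp2), 47.9% (prd) and 65.4% (odd), so such distances were common on both arms.

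Scores and widths of the 14 peaks ranged from 56.60 to 2509.56 and from 400 to 7402 bp. A score above the list median of 199 was held by 8 of them, where 50% of all peaks lie above it, and 6 of these 8 were at h. A score of 1000 or more was held by 1 of the 14, against 6.77% of the list. The median score was 564 for the 7 peaks of h and 120 for the other 7, and the median widths were 2959 and 1028 bp. Each peak was also set among peaks whose width was within 10% of its own, since the median score differed with width. It was 67.9 for peaks of like width to the narrowest of the 14, of 400 bp, and 1710 for those like the widest, of 7402 bp.

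Among peaks of like width, the run peak stood high and the stronger prd peak low. The score of the run peak was reached by 9.29% of 872 peaks of like width, whose median was 152. The wider prd peak, with 119.79, was at or above 6.29% of 429 such peaks, whose median was 491, so that its width of 3052 bp went with a low score. The slp1 and slp2 peak was at or above 6.07% of 791 peaks of like width. The peaks of odd lay at the 81.5, 51.4 and 62.1 percentiles in order of position. Those of h ranged from the 31.1 percentile, for the peak of score 110.50, to the 86.7 percentile, for that of 572.33. The strongest peak of h was at the 70.0 percentile of 50 peaks of like width.

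**Figure D5:**
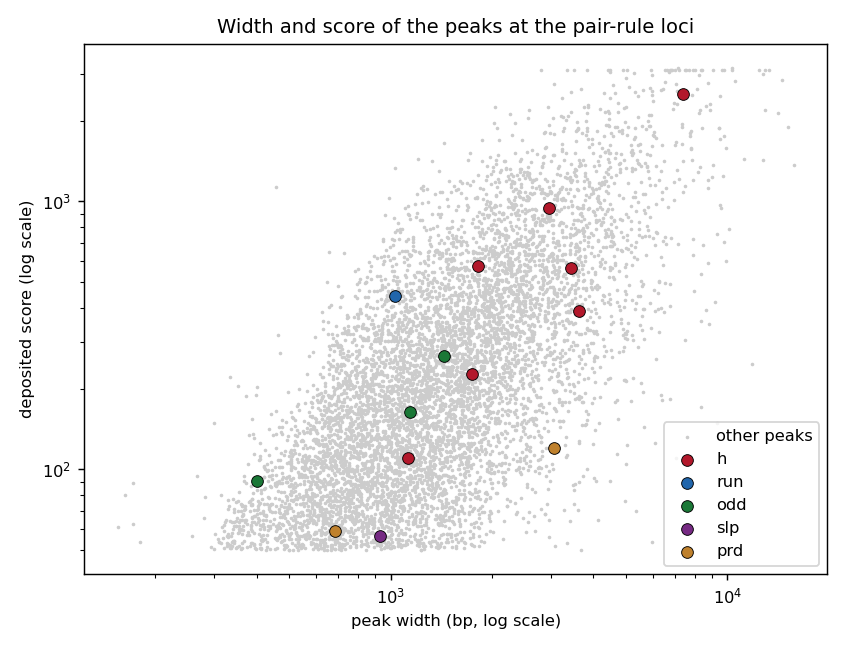
Width and score of all peaks, both on log scales. The horizontal axis is the peak width in bp and the vertical axis the deposited score. Grey points are peaks outside the 5 windows and coloured points the 14 peaks inside. The widest prd peak lies low for its width of 3052 bp, and the run peak lies high for its 1028 bp.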

How the data were processed

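Peaks were called by the authors with MACS, per the file headers (its track line). Per the submitters' processing notes, Bowtie served for alignment and coordinates follow BDGP5. Not given in the sources used here are their versions and settings and whether replicates were pooled. The deposited score of each peak is not defined in the file; it begins at 50 and ends at 3145.59, with several peaks at exactly 3100. Other deposited columns give the start and end of a peak; starts are printed from 1. The read depth is unknown, so no interval or detection limit was given.

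Peaks were assigned to windows by midpoint. All windows of equal length on the same arm, every 1 kb, took the place of random ones, and those overlapping a locus were kept in. No p-value was computed. Functions were tested on simulated peaks (Python 3.11.15, NumPy 2.4.6, pandas 2.3.3). The 6 gene symbols were all matched in the RefSeq Release 6 table, h as hry, for gene order only. All 6 genes and every peak in the windows were named by rule, with the first peak outside each end; other peaks were named after their values were seen. The members, lists and alternatives were chosen with earlier results of these data known. The Caudal motif, peak sequences and the genes eve, ftz, opa, sob and drm were not analysed here.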

Additional observations from a re-analysis of the deposited data

How the results depend on the processing

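No paired analysis was possible because no result comes from a test and 1 list stands for the ChIP replicates; for the same reason no replicate could be left out. Overlap of at least 1 base in place of midpoints, and windows laid end to end, kept the numbers of peaks and the shares of windows with at least as many peaks within their limits (a factor of 1.5 for numbers, the exact 95% binomial interval over windows laid end to end for shares). Other windows and other peak sets changed several values. In the central 50% of a window the numbers were 4 (h), 1 (odd) and 0 (run, slp1 and slp2, prd), and the shares 51.0% (odd) and 100% by definition for the empty ones. With 25% of its length added on either side the numbers were 6 (odd), 4 (prd), 2 (run) and 3 (slp1 and slp2), and the shares 29.9% (odd), 37.1% (prd) and 51.9% (slp1 and slp2). Merging peaks across gaps of up to 500 bp left 3 peaks at h, and 44.4% of windows then held as many, so that the number of peaks at h depends on how the block was divided, while its covered share does not count peaks. With peaks of score 100 or more the numbers were 2 (odd), 1 (prd) and 0 (slp1 and slp2). The shares were then 4.36% (h), 46.8% (odd), 56.0% (prd) and 100% (slp1 and slp2). Among windows of the 5 large arms the shares were 47.9% (odd), 52.0% (prd), 73.3% (run) and 68.4% (slp1 and slp2). Among windows with at least 1 peak they were 16.1% (h), 63.5% (odd), 76.0% (prd) and 100% (run, slp1 and slp2). In the central 50% and the longer window, the covered share was 49.2% and 45.9% at h, 1.78% and 12.7% at odd, 0% and 15.8% at prd, 0% and 3.73% at run, and 0% and 8.48% at slp1 and slp2. The highest score fell to 948.80 (h) and 90.86 (odd) in the central 50%, where the other loci had no peak, and in the longer window it was the same at h and rose to 716.28 (odd), 259.68 (prd), 523.14 (run) and 403.19 (slp1 and slp2). With peaks of score 100 or more the covered share at slp1 and slp2 was 0%. With widths within 20% in place of 10%, the wider prd peak was at or above 6.77% of peaks of like width, that of slp1 and slp2 4.99% and that of run 92.0%. This width range, shares with at most as many peaks and the joining distances of runs were chosen after seeing the data. The unknown depth limits every statement on empty stretches.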

Other observations

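The strongest peaks near several of the loci lay outside the windows and were picked after their values were seen. Within 1 window length below the slp1 and slp2 window, the peak at 2L 3776505 to 3779943 had a score of 2159.66 and lay 51.8 kb from the centre of that window. Below prd, the peak at 2L 12043884 to 12049097 was 5214 bp wide with a score of 1334.75. Below odd, the peak at 2L 3572647 to 3574347 had a score of 1430.75 and a width of 1701 bp. Each of these exceeded every peak inside its neighbouring window, the highest there being 56.60, 119.79 and 264.48. At run too the highest score lay outside, 523.14 against 442.04 inside. The stretches on both sides are together longer than the window, so the highest peak can be expected outside more often than inside. How often other windows show this order was not tested. At h the order was the reverse, with 2509.56 inside the window and 1908.12 as the highest outside. The gene to which any of these peaks belongs was not analysed here.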
